A study of Macaca mulatta with 102 samples.

Results

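The transcripts described here were more abundant in the RNA of rhesus macaque milk fat than in the RNA of both milk cells and mammary biopsies. They were chosen by measured values: a locus spanning more than 1000 bases, a mean of at least 5 FPKM (an abundance from read counts, scaled for the length of the transcript and the depth of its library) over the milk fat samples, and a milk fat mean at least 2.5 times the mean in biopsies and the mean in milk cells. Of 42701 Ensembl transcripts in the table, 89 met this rule, in 88 loci, after 3 transcripts at the perilipin 2 (PLIN2) loci of chromosome 15 had been left out. Span and milk fat level alone were met by 5697 transcripts, which serve below as the background. Samples came from 6 lactating females, M1 to M6, with no treatment named in the labels, at 30 or 90 days after birth. The labels give 10 milk fat samples (Fat, 4 at day 30 and 6 at day 90), 12 milk cell samples (Cells, 6 at each day) and 6 mammary biopsies (Bx, 3 at each day, 1 per animal). At day 90 they also give 5 samples called FatS10 (spelled FatsS10 in M4, none for M3) and 1 called Skim10m (M3), which took no part in the choice. The labels do not say what these names mean. The study counts 6 cell-free milk samples at day 90, which is the number of FatS10 and Skim10m samples together. No strain or age was used here, and the animals are the replicates: 3 technical runs of each sample were averaged.

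Milk fat is secreted by an apocrine route, in which a lipid droplet leaves the mammary epithelial cell wrapped in a piece of its plasma membrane. A sliver of cytoplasm, the cytoplasmic crescent, is sometimes caught between droplet and membrane, so the fat layer of centrifuged milk carries RNA from the secreting cells. Milk cells are the pelleted cells, which include leukocytes and shed epithelial cells, and a biopsy also holds stroma, vessels and adipose tissue. In such bulk samples, fewer cells of a type and less RNA per cell cannot be told apart. Many genes give several transcripts by alternative splicing or alternative ends, and the values here are for single transcripts. The table and the references used here do not pair these transcripts with genes, so members are given by Ensembl identifier and by position in rheMac2, and the roles of their genes are not stated.

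Relative depth, estimated from the spacing of low FPKM with the median sample set to 1, ranged from 0.742 to 1.62 in Fat, 0.850 to 1.19 in Cells, 0.744 to 1.37 in Bx and 0.919 to 1.23 in FatS10. PLIN2 codes for the protein that coats milk lipid droplets. The summed FPKM of the 3 PLIN2 transcripts left out by the rule was 15917 to 198410 in Fat and 6392 to 14389 in FatS10. It was 1350 to 4031 in Cells and 619 to 1135 in Bx. The paper lists a further PLIN2 transcript among its most abundant in milk fat, which the sum leaves out. The groups did not overlap in this sum, with FatS10 between Fat and Cells.

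The 89 members were low to moderate in level. Their Fat means ran from 5.10 to 251 FPKM with a median of 9.77, against a median of 13.1 in the background, and 46 of the 89 lay below 10 FPKM. Their summed FPKM was 970 to 2803 in Fat (1722 ± 625.1, SD, n = 10), 331 to 659 in Cells (492 ± 114, n = 12), 184 to 399 in Bx (301 ± 99.98, n = 6) and 614 to 1026 in FatS10 (749 ± 165, n = 5). They held 0.0702 to 0.251% of all FPKM in a Fat sample and at most 0.0684% in a Cells or Bx sample. The ratio of the Fat mean to the larger of the Bx and Cells means was 2.5 to under 3 in 31 members, 3 to under 5 in 36, 5 to under 10 in 13 and at least 10 in 9. In 23 members all 10 Fat samples lay above all 18 Cells and Bx samples, where 2.91% of the background transcripts did; the rule used these values, so the count describes the members and tests nothing. Taken animal by animal, with days averaged, Fat was above both other types in all 6 animals for 73 members, in 5 animals for 12 and in 4 animals for 4, by the same choice, and in all 6 animals for 28.9% of the background. Any excess was counted, also between values near 0. ENSMMUT00000003284 counted in all 6 animals although its median in Fat was 9.17e-06 FPKM.

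**Figure D1:**
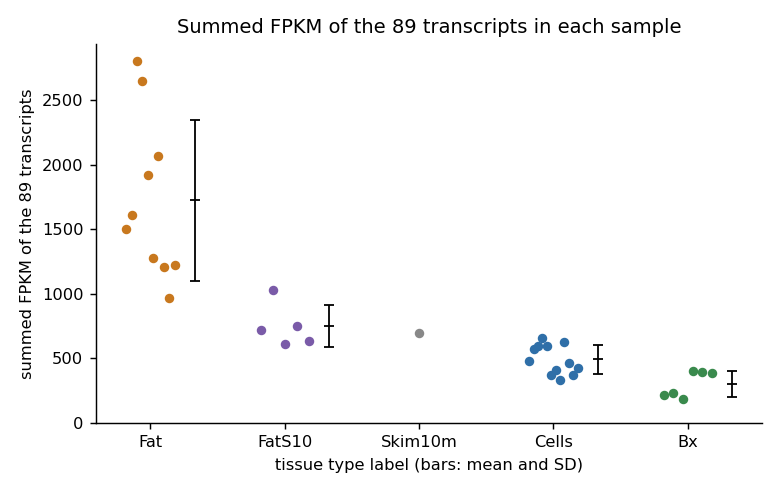
The summed FPKM of the 89 transcripts (vertical axis) is plotted for each sample under its tissue type label, with 1 point per sample and the mean and SD beside each group of more than 1 sample. The 10 Fat samples sit between 970 and 2803, above the Cells samples (at most 659) and the Bx samples (at most 399), while the highest FatS10 sample reaches 1026.

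The member with the highest level was ENSMMUT00000001597 (chr6:10601638-10678188). Its FPKM had a lowest, median and highest value of 155, 259 and 354 in Fat, of 47.6, 82.8 and 156 in Cells and of 31.4, 45.8 and 63.6 in Bx. All Fat samples lay above all Bx samples, and the lowest Fat sample was level with the highest Cells sample. ENSMMUT00000024754 (chr14:116740082-116777631) stood furthest from the other types among the 10 most abundant members in which no Fat sample was near 0. It had 42.3, 77.8 and 213 FPKM in Fat, 4.09, 10.2 and 13.2 in Cells and 1.62, 2.42 and 3.07 in Bx, so that the 3 types did not overlap. Its highest Fat samples were those of M3, at 213 on day 30 and 159 on day 90.

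The other abundant members were closer to the threshold of the rule. ENSMMUT00000026261 (chr11:6686718-6689648) had a mean of 105 ± 48.5 FPKM in Fat (n = 10) and a ratio of 2.56. ENSMMUT00000047606 (chr1:11900013-11916801) had 79.3 ± 39.2 and a ratio of 3.87. ENSMMUT00000027131 (chr1:14165070-14170503) had 69.6 ± 19.6 and a ratio of 2.63, with its lowest Fat sample at 41.9 FPKM, just above its highest Cells sample at 40.2. ENSMMUT00000029041 (chr14:72865967-72888697), ENSMMUT00000016278 (chr19:56130371-56139846), ENSMMUT00000046375 (chr15:42481568-42497049) and ENSMMUT00000002527 (chr11:86019896-86021117) had Fat means of 44.6 to 53.0 FPKM and ratios of 2.61 to 2.79. In these 4 members Fat and Cells overlapped for ENSMMUT00000029041, where the lowest Fat sample had 19.8 FPKM and the highest Cells sample 34.98.

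**Figure D2:**
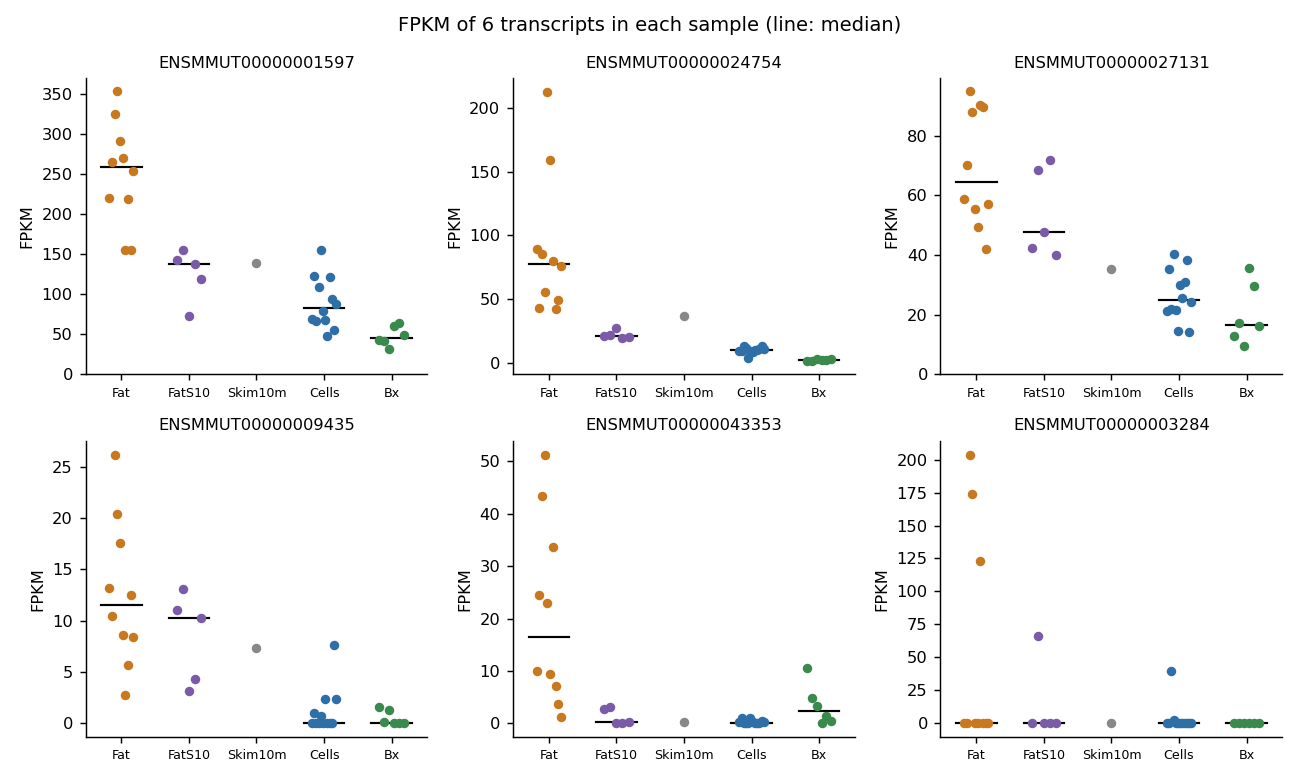
FPKM (vertical axes, linear, each panel with its own scale) of 6 members in every sample, by tissue type label, with 1 point per sample and a line at the median. ENSMMUT00000024754 has no overlap between Fat, Cells and Bx, while ENSMMUT00000003284 is above 100 FPKM in 3 Fat samples and near 0 in the other 7.

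Most members shared their locus with other annotated transcripts. Only 12 of the 89 (13.5%) overlapped no other transcript of the table, against 37.7% of the background, and Cufflinks, the program that made the FPKM, divides the reads of a locus between the transcripts that could have given them. For the 77 members with overlapping transcripts, the member held a median of 30.8% of the FPKM summed over its locus in Fat, 12.6% in Cells, 9.74% in Bx and 15.2% in FatS10. The background transcripts with an overlapping partner held 68.4, 66.0, 64.7 and 67.1%. The locus itself differed less than the member. Members were chosen for high values in Fat, so their larger share there and the smaller locus difference follow largely from the choice. They describe the members and test nothing. The study reports lower RNA integrity in macaque milk fat than in milk cells or in mammary tissue. Whether integrity bears on the shares or levels given here was not tested. Summed over the locus, the Fat mean was still at least 2.5 times the larger of the others for 7 of the 77, and it was under 1.5 times for 33. In 57 of the 77, the other transcript of the locus with the highest Fat mean was more abundant in Fat than the member. That transcript had a median ratio of 1.26 over the 77. It need not overlap the member, since a locus chains transcripts that overlap one after another. For ENSMMUT00000039395 (chr20:28056870-28065900) it lay at chr20:28287760-28289450. The table gives no strand, so another transcript of a locus may belong to the same gene or to another.

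Several members show this division in single loci. ENSMMUT00000009435 (chr10:20981232-20985051) had 12.6 ± 7.09 FPKM in Fat, 1.17 ± 2.22 in Cells and 0.495 ± 0.719 in Bx, while ENSMMUT00000044930, which begins at the same base and ends at 20983639, had means of 7.69, 22.0 and 54.4 FPKM. The pair therefore ran in opposite directions, and the summed locus averaged 23.2 FPKM in Fat, 29.0 in Cells and 66.1 in Bx. ENSMMUT00000043353 (chr9:6039743-6075747) averaged 20.7 FPKM in Fat, 0.280 in Cells and 3.44 in Bx, and its most abundant overlapping transcript, ENSMMUT00000018493 (chr9:6039742-6088787), averaged 67.8, 63.9 and 39.5. ENSMMUT00000001597 had a partner of the reverse order: ENSMMUT00000001596 (chr6:10603205-10678022) had means of 38.3 FPKM in Fat, 62.0 in Cells and 57.0 in Bx, and the summed locus was 1.91 times higher in Fat. ENSMMUT00000038451 (chr19:53824354-53851231) had 15.4 FPKM in Fat, 1.52 in Cells and 0.105 in Bx, beside 49.4, 33.6 and 24.8 for ENSMMUT00000038452 (chr19:53824313-53851302). In all 4 loci the transcript chosen by the rule took a larger share of the locus in milk fat than in the other types. The rule chose these transcripts for being high in milk fat, so the larger share is built into the choice.

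**Figure D3:**
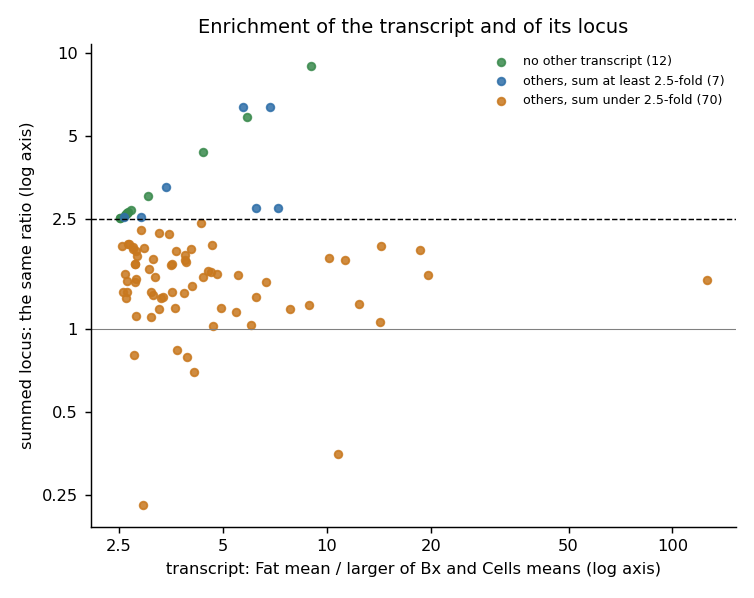
Each point is 1 of the 89 members, with the ratio of its Fat mean to the larger of its Bx and Cells means on the horizontal axis and the same ratio for the FPKM summed over its locus on the vertical axis, both logarithmic. The dashed line marks 2.5: the 12 members with no overlapping transcript keep their ratio by construction, 7 others stay above the line and 70 fall below it, down to 0.230.

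The summed locus met the rule's ratio for 19 members, in 18 loci. Of these, 12 were alone at their locus, so the sum is the member itself and meets the ratio by construction. The other 7 shared their locus with other transcripts. All 19 were picked out after their values had been seen. Their locus ratios reached 8.97 in ENSMMUT00000024754, the only transcript at its locus. A pair of members, ENSMMUT00000021524 and ENSMMUT00000021529, shared the coordinates chr8:50295892-50484902 and together gave nearly all FPKM of a locus with a ratio of 6.38. ENSMMUT00000021524 had 10.6 to 69.8 FPKM in Fat, at most 5.28 in Cells and at most 1.9 in Bx, and ENSMMUT00000021529 had 5.63 to 42.0, at most 3.91 and at most 1.18. Neither overlapped between Fat and the other types, and the highest sample of both was the day 30 milk fat of M3. ENSMMUT00000033356 (chr19:4402374-4407778), alone at its locus, had a ratio of 5.87, with 1.96 to 17.0 FPKM in Fat, at most 3.16 in Cells and at most 2.68 in Bx, so its lowest Fat sample lay within the range of the other types. ENSMMUT00000010854 (chr14:2937331-2938474), also alone at its locus, had a ratio of 4.38, with 4.06 to 14.5 FPKM in Fat and at most 3.79 elsewhere among Cells and Bx. The remaining 14 had locus ratios of 2.51 to 3.26.

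The members varied more between animals and between technical runs than the background. Their coefficient of variation over the Fat means of the 6 animals had a median of 48.0%, against 22.6% in the background, and that over the 3 runs of a Fat sample a median of 19.1% against 6.49%. The rule used these Fat values, and how far the choice accounts for the wider spread was not tested. Among members alone at their locus the median over runs was 7.57%, among the 7 with overlapping transcripts whose summed locus kept the rule's ratio it was 6.86%, and among the 70 whose summed locus fell below that ratio it was 22.3%. The difference between these 3 sets was not tested. In 9 members at least 1 Fat sample was below 0.1 FPKM (0.790% of the background), and all 9 were among those 70. In 39 members at least 1 Bx sample was below 0.1 FPKM, against 2.33% of the background, and in 24 at least 1 Cells sample, against 1.11%. The rule asks for low means in Bx and Cells, so the choice favours such counts. They describe the members and are no test. The highest ratios stood on such low values, so a large ratio here is not a precise fold.

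ENSMMUT00000003284 (chr11:126230062-126231664) was the clearest case. Its Fat values were 204 and 174 FPKM in M2 at days 30 and 90 and 123 in M4, and the other 7 Fat samples were listed near 0. In the other types it was present in M2 alone at more than 1 FPKM, with 39.7 and 2.34 in its Cells at days 30 and 90 and 66.6 in its FatS10, and Bx was near 0 throughout. The transcript that overlaps it, ENSMMUT00000045385 (chr11:126229996-126232545), averaged 665 FPKM in Fat and 675 in Cells. ENSMMUT00000047201 (chr1:50154018-50198844), which had the highest ratio of all members at 126, was at 19 and 25.7 FPKM in the Fat of M2, 19.7 in that of M4, 8.52 in the day 30 Fat of M3 and at most 1.15 in the other 6 Fat samples. Its Cells samples had at most 0.194 FPKM. ENSMMUT00000024289 (chr14:7059868-7063483) had 12.9 and 16.1 FPKM in the Fat of M2 and 19.8 in that of M4, and no more than 1.79 in the other Fat samples.

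M2 also gave the highest or next highest Fat values of the remaining members with the highest ratios. ENSMMUT00000014073 (chr19:55091211-55108661) had 37.8 and 32.0 FPKM in the Fat of M2, 51.2 in that of M4 and at most 9.59 in the other 7 Fat samples, with a highest value of 3.11 in Bx and 0.839 in Cells. ENSMMUT00000006989 (chrX:128363658-128400386) had 11.6 and 9.84 FPKM in the Fat of M2 and 0.673 to 7.46 in the other 8 Fat samples, and at most 1.31 in Cells and 1.15 in Bx. ENSMMUT00000013810 (chr16:52684369-52688508) had 15.9 and 12.8 in the Fat of M2, 0.284 to 7.19 in the other 8 Fat samples and at most 1.25 in Cells and Bx. In each of the 3 the lowest Fat sample lay within the range of the other types. The steadiest members by the SD of log2(FPKM + 1) in Fat were ENSMMUT00000031812 (chr14:9678110-9692274), at 0.28, and ENSMMUT00000000873 (chr20:259209-260293), at 0.30. ENSMMUT00000031812 had 6.37, 8.47 and 14.2 FPKM in Fat and ENSMMUT00000000873 had 4.90, 7.11 and 11.3.

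Milk fat of M2 gave the highest Fat value of 66 members (74.2%), and of 62.5% of the background. M4 followed with 12 members, M3 with 8 and M1 with 3, and no member was highest in M5 or M6, which held 8.62 and 7.06% of the background. After scaling of the samples by median-of-ratios factors, M4 was highest in 38 members (27.1% of the background), M2 in 29 (18.8%), M3 in 17 (25.5%) and M1 in 5, and M5 and M6 again in none. The summed FPKM of the members was likewise highest in the Fat of M2, at 2803 and 2644, followed by M4 at 2067 and the day 30 Fat of M3 at 1922, and the others had 970 to 1608. Within M2 the 2 days were close. The first number in the sample titles, whose meaning the labels do not give, was shared by M1 with M2, by M3 with M4 and by the milk samples of M5 with M6. If it names a sequencing batch, batch and animal cannot be told apart between these pairs, while within the pair of M1 and M2 the sums were 1500 and 1608 in M1. Without M2 the rule found 57 transcripts instead of 89, of which 54 were members, and 47 members were found whichever animal was left out.

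Because every sample of Fat, Cells and Bx entered the rule, its ratio was also examined in animals that did not choose the transcripts. The rule was applied to 5 animals at a time, which found 57 to 111 transcripts, and the share of these that were at least 2.5 times higher in the milk fat of the animal left out than in its cells and its biopsy was counted. That share was 82.5% in M2, 79.5% in M4, 59.2% in M1, 54.1% in M3, 38.2% in M6 and 20.7% in M5, with a mean of 55.7% over animals. Among all transcripts with the same span and level it was 0.684 to 4.84%. By animal it was 4.84% in M4, 4.25% in M2, 2.18% in M3, 1.48% in M1, 1.32% in M6 and 0.684% in M5. Milk fat was above both other types at all for 84.5 to 97.3% of the transcripts found, against 43.3 to 64.0% of all. The direction was thus shared by most transcripts found in each animal left out. The size of the ratio was reached less often in M5 and M6 than in M2 and M4, also among all transcripts. The difference between animals was not tested.

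**Figure D4:**
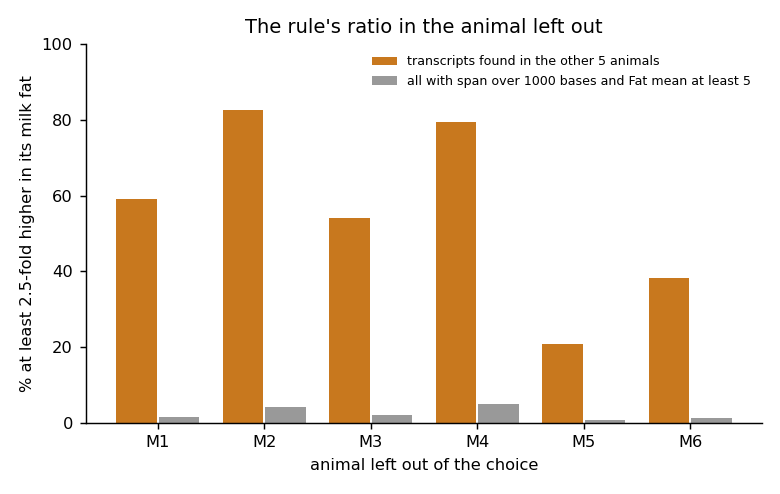
Bars give the percentage of transcripts whose FPKM in milk fat was at least 2.5 times that in milk cells and in the biopsy of the animal named on the horizontal axis, for transcripts that the rule found in the other 5 animals (orange) and for all transcripts with a span over 1000 bases and a Fat mean of at least 5 in those animals (grey). Orange bars run from 20.7% in M5 to 82.5% in M2 and grey bars from 0.684 to 4.84%.

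No member was called as different between the days of lactation in milk fat. All tests used limma, fitted to log2(scaled FPKM + 1) for every transcript that averaged at least 1 FPKM in the samples at issue, with p-values adjusted over all of them by Benjamini-Hochberg, and a transcript was called at an adjusted p under 0.05. Differences are on that log2 scale, which understates the change of low transcripts. Between 4 day 30 and 6 day 90 Fat samples, 0 of the 89 members were called, and 0% of the 12609 transcripts tested. At an unadjusted p under 0.05 there were 2 members and 661 transcripts. The median difference (day 90 minus day 30) was 0.10 over the members, with a range from -0.78 to 0.94, and 0.02 over all transcripts. M4 and M5 gave Fat at day 90 only, so day and animal are partly mixed in this comparison. The median over the members was -0.02 without M4, -0.03 without M6 and -0.02 without M2 and M4. It was 0.03 to 0.33 when M1, M2, M3 or M5 was left out. ENSMMUT00000000873 had the smallest adjusted p of the members (limma, 0.885), with a difference of 0.58 ± 0.16 (SE). A difference that misses the threshold is not shown to be absent.

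In milk cells, 76 members had a mean of at least 1 FPKM and could be tested. ENSMMUT00000028386 (chr19:56100454-56117704) was the member called higher at day 90, where 3.53% of all transcripts were. Its FPKM in Cells of M1 to M6 was 1.99, 4.83, 2.78, 5.24, 2.74 and 2.63 at day 30 and 6.97, 9.80, 3.08, 7.69, 5.60 and 5.90 at day 90. It was higher at day 90 in 6 of 6 animals, by 0.80 ± 0.18 on the log2 scale (adjusted p = 0.0386), and its Fat values gave a difference of 0.31 ± 0.23 (adjusted p = 0.933). ENSMMUT00000038451 and ENSMMUT00000045953 (chr2:95296617-95302825) were called lower at day 90, where 1.57% of all were, by -1.51 ± 0.39 (adjusted p = 0.0456) and -0.62 ± 0.16 (adjusted p = 0.0460). ENSMMUT00000038451 had 1.56, 1.23, 7.51, 0.831, 3.63 and 2.33 FPKM at day 30 in M1 to M6. At day 90 it had 1.15 FPKM in M5 and was near 0 in the other animals, so its call rests on values near 0. ENSMMUT00000045953 had 1.41, 2.76, 1.21, 1.39, 3.13 and 2.48 FPKM at day 30 and 1.32, 1.06, 0.855, 0.536, 0.800 and 0.668 at day 90, lower in 6 of 6 animals. With the animal as a block, 3 members were called higher and 8 lower, where 11.6 and 13.4% of all transcripts were. Without a block, no member was called when M1, M2, M5 or M6 was left out, 1 without M4 and 6 without M3. Over all transcripts, calls higher and lower were 0 and 0 without M1, M5 or M6 and 0 and 1 without M2. They were 85 and 12 without M4 and 1635 and 1262 without M3. The shift between days was not shown to differ between milk fat and milk cells: in the test of that difference 0 members and 0% of 13521 transcripts were called, with 3 members and 2107 transcripts at an unadjusted p under 0.05. With the animal as a block 1307 transcripts were called in that test, and no member was among them.

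The FatS10 samples lay between milk fat and milk cells for most members. The FatS10 mean was between the Cells and Fat means in 78 of the 89, against 42.5% of the background. Against the 6 Fat samples of day 90, all 89 members were lower in FatS10, with a median difference of -1.18 where all 12759 transcripts had -0.02, and 63 members (70.8%) were called lower, beside 14.1% of all transcripts. In 27 members the 5 FatS10 samples lay below all 6 Fat samples, beside 3.44% of the background. The Fat samples on the other side of this comparison had helped to choose the members, so these counts are a description and no test is read from them. Where the choice was made without an animal, its own FatS10 sample was below its own day 90 milk fat for 95.9% of the transcripts found in M1, 100% in M2, 97.3% in M4, 95.5% in M5 and 91.8% in M6, against 41.4 to 69.4% of all. The count of 63 fell to 26 without M1, 38 without M4 and 41 without M6. Over all transcripts, calls lower in FatS10 fell from 1802 to 468, 773 and 804 in the same settings.

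Single members differed in how far FatS10 fell below milk fat. ENSMMUT00000043353 had 2.69, 3.14, near 0, near 0 and 0.244 FPKM in FatS10 of M1, M2, M4, M5 and M6, against 24.4, 51.3, 9.46, 33.6, 7.20 and 1.18 in the day 90 Fat of M1 to M6. The groups overlapped, and the difference was -3.09 ± 0.75 (SE). ENSMMUT00000041311 (chr16:54413060-54414350) had 0.274, 0.186, 1.83, near 0 and 2.79 FPKM in FatS10 of the same animals and 5.63 to 18.5 in day 90 Fat, with no overlap and a difference of -2.78 ± 0.37. At the other end, ENSMMUT00000009435 had 11, 13, 3.12, 4.33 and 10.3 FPKM in FatS10 and 10.5, 20.4, 8.59, 2.79, 5.63 and 8.41 in day 90 Fat. Its FatS10 value exceeded the animal's own Fat value in 3 of 5 animals, and its difference was -0.25 ± 0.41, smaller than its SE.

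Against the low side of the rule, FatS10 was higher for most members by smaller amounts. Cells and Bx had been low by choice, so the counts here and against the biopsies are a description and no test is read from them. Of 78 members tested against the 6 Cells samples of day 90, 75 had a positive difference, with a median of 0.44 beside 0.06 over all 13456 transcripts, and 3 were called higher, beside 0.141% of all transcripts. These were ENSMMUT00000009435 (2.52 ± 0.40), ENSMMUT00000039720 (chr20:622955-624766, 1.15 ± 0.21) and ENSMMUT00000024754 (0.97 ± 0.12). For ENSMMUT00000024754 the FatS10 values were 21.1, 21.9, 26.9, 19.2 and 20.6 FPKM in M1, M2, M4, M5 and M6, above its day 90 Cells values of 8.84 to 11.6 without overlap. In 6 members all FatS10 samples lay above all day 90 Cells samples, beside 3.84% of the background. With the animal as a block, 30 members were called higher and 16.6% of all transcripts were. Without the block the count was 0 without M4, 1 without M1, M2 or M5 and 6 without M3. Of all transcripts, 19 were called higher with all animals kept, 4 without M4, 10 without M1, 5 without M2 or M5 and 293 without M3.

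Against the biopsies, 35 of 79 members tested (44.3%) were called higher in FatS10, where 23.3% of all transcripts were. The median difference was 0.73 over these members and 0.05 over all transcripts. The largest were those of ENSMMUT00000024754 (2.53 ± 0.15) and ENSMMUT00000009435 (2.41 ± 0.42), both higher in FatS10 than in the animal's own biopsy in 5 of 5 animals. All FatS10 samples lay above all Bx samples in 20 members (22.5%), and in 26.9% of the background. All 3 comparisons share the FatS10 samples. When an animal was left out of the choice, its FatS10 sample was above both its cells and its biopsy for 53.4 to 66.7% of the transcripts found, against 43.1 to 63.0% of all transcripts. By animal these shares were 60.2 and 51.9% in M1, 64.9 and 43.1% in M2, 53.4 and 63.0% in M4, 66.7 and 58.7% in M5 and 60.0 and 60.3% in M6. The transcripts found were thus ahead in M1, M2 and M5 and not in M4 or M6. For FatS10 above the biopsy alone, the shares were 80.6 and 82.7% in M1 and 89.5 and 84.3% in M2. They were 56.2 and 69.0% in M4, 76.6 and 75.7% in M5 and 64.5 and 66.8% in M6. Against the biopsy alone, the transcripts found were ahead in M2 and M5 and not in M1, M4 or M6.

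**Figure D5:**
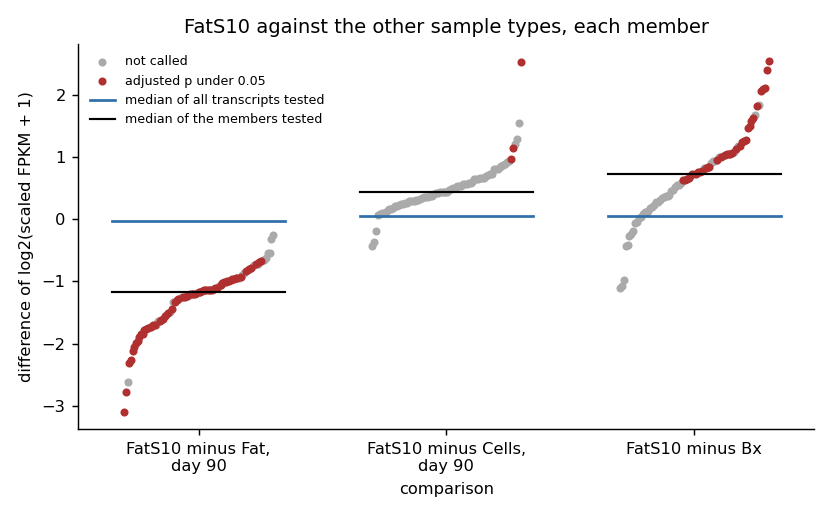
Each point is the difference in log2(scaled FPKM + 1) of 1 member between FatS10 and day 90 milk fat, day 90 milk cells or biopsies, in ascending order within each comparison, with members called at an adjusted p under 0.05 in red, the median of the members tested in black and that of all transcripts tested in blue. Medians of the members are -1.18, 0.44 and 0.73, and those of all transcripts -0.02, 0.06 and 0.05.

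The counts are given here also by whether a member shared its locus, a difference that was not tested. Of the 12 members alone at their locus, 8 were called lower in FatS10 than in Fat, with a median difference of -0.94. Of the 7 whose summed locus kept the ratio 6 were, with -1.12, and of the other 70 members 49 were, with -1.21. Against Bx, 8 of 12, 4 of 6 and 23 of 61 tested were called higher in FatS10. When FPKM were summed over each locus before the test, 59 of the 88 loci were called lower in FatS10 than in Fat, with a median difference of -0.55, beside 17.6% of all 9577 loci tested, whose median was -0.02.

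The threshold of 2.5 cut through a continuous range of ratios. The members just inside it were ENSMMUT00000022329 (chr6:2649244-2650345) and ENSMMUT00000000873, both with a ratio of 2.51. Just outside it were ENSMMUT00000027482 (chr19:3940633-3961470), at 56.5 FPKM in Fat, and ENSMMUT00000008204 (chr11:6685782-6689662), at 7.22, with ratios of 2.498 in both. ENSMMUT00000008204 overlaps the member ENSMMUT00000026261. Over the 28 Fat, Cells and Bx samples, the transcripts outside the list whose log2 values followed the mean of the members most closely were ENSMMUT00000026863 (chr14:8445107-8448279, Pearson r = 0.981), ENSMMUT00000020070 (chr19:51318644-51331307, r = 0.972) and ENSMMUT00000024013 (chr7:158778653-158788221, r = 0.966). Their ratios were 1.99, 2.06 and 1.97, below the rule. The samples of an animal and a type are shared by both sides of these correlations, which are given as a description.

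The members lay on 18 chromosomes, with 11 each on chromosomes 14 and 19 and 8 on chromosome 20. These 3 chromosomes held 33.7% of the members and 17.5% of the background. Another member's locus lay within 1000000 bases for 25 of the 89. The same was not counted for the background, so no clustering is read from that count. The locus spans of members had a median of 9475 bases, shorter than the background's 17056. Neither difference was tested, and no sequence of these loci was at hand to describe further.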

How the data were processed

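The authors made poly(A)-selected libraries in multiplexed pools, checked reads with FastQC after trimming, aligned these 100-base reads to rheMac2 (TopHat, Bowtie) and estimated FPKM for Ensembl release 67 transcripts with Cufflinks. These deposited FPKM were analysed. They are scaled for length and depth and carry no read counts, so the total per sample is unknown and no counting interval was computed. The study's test on counts per gene was not run here. The table held 102 columns that match samples and 6 columns that match none of the samples described, which were not used. No pair of the 102 was identical (0 pairs).

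The 3 runs of each of 34 samples were averaged. The members, lists and tests were chosen with earlier results of these data known. Levels are FPKM as deposited. Loci are groups of transcripts joined by overlapping coordinates, so not every pair within a locus overlaps. For tests, each sample was divided by its median-of-ratios factor, taken from 21792 transcripts that are nowhere at 0, a pseudocount of 1 went in, and limma 3.58.1 (R 4.3.3, trend in the prior variance, two-sided, no block) was fitted to log2 values of transcripts with a mean of at least 1 FPKM. The fits and the depth estimate were tested on simulated data. Samples of an animal deviated together: the lowest correlation of deviations within an animal was 0.274 between days in milk fat, 0.222 between days in milk cells, and 0.334, 0.291 and 0.187 for FatS10 with milk fat, milk cells and biopsies, so a fit with the animal as a block was run too. Python 3.11.15, numpy 2.4.6, pandas 2.3.3 and matplotlib 3.10.9 were used.

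Transcripts named are the 10 highest in Fat, the 5 with the highest ratio, in each comparison the 2 called members that rose most and the 2 that fell most, the 2 nearest the threshold on each side, the 2 with the highest ratio of the highest to the median Fat sample and the 2 that vary least, the 3 outside the list with the most similar profile, and, where said, loci picked after their values were seen. Gene lists and cell type markers could not be applied, since no source used here pairs these transcripts with gene names, so the tissue labels were checked by PLIN2 alone.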

Additional observations from a re-analysis of the deposited data

Results flagged for a closer look

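Among 25 named members, the highest and lowest values in the 10 Fat and 5 FatS10 samples were compared with the rest of their group. The gap was taken as a share of the group's range (Dixon's test at 95%). Chance alone flags about 1 group in 20 where values are normal and groups independent. The FPKM were not log-transformed, the groups share samples, and some members were named for their spread in Fat. No excess over chance is therefore read from the count. A sample stood apart in 9 of the 50 groups. In Fat these were the day 90 sample of M4 for ENSMMUT00000028386 (22.1 FPKM), the day 90 sample of M1 for ENSMMUT00000022329 (54.8 FPKM) and the day 30 sample of M2 for ENSMMUT00000031812 (14.2 FPKM). In FatS10 the sample of M2 was high for ENSMMUT00000047606 (42.5 FPKM), ENSMMUT00000003284 (66.6 FPKM), ENSMMUT00000039720 (3.57 FPKM) and ENSMMUT00000014073 (0.106 FPKM). The FatS10 sample of M5 was high for ENSMMUT00000047201 (0.2001 FPKM), and that of M4 was low for ENSMMUT00000000873 (2.12 FPKM). The values of ENSMMUT00000014073 and ENSMMUT00000047201 stand apart only because the other FatS10 samples are near 0.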

How the results depend on the processing

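The rule found 135 transcripts from day 90 Fat and Cells, 43 with a minimum of 10 FPKM, 58 at 3-fold, 23 loci when FPKM were summed over overlapping transcripts, 57 to 111 with each animal left out, and 39 without M2 and M4, a setting chosen after the values were seen. The share in an animal left out rose from 55.7 to 93.1% when any excess over Bx and Cells was counted. Members called between days in milk cells numbered 3, and 0 with unscaled FPKM, with no filter or beyond 3-fold, 11 with the replicate block, 5 with summed loci and 0 to 6 with each animal left out. Members lower in FatS10 than in Fat numbered 63, and 20 beyond 3-fold, 37 with no filter, 0 without M2 and M4 and 26 to 67 with each animal left out. Members higher in FatS10 than in Cells numbered 3, and 1 beyond 3-fold, with no filter or with summed loci, 5 with the Skim10m sample, 30 with the replicate block, 0 without M2 and M4 and 0 to 6 with each animal left out. Members higher in FatS10 than in Bx numbered 35, and 7 beyond 3-fold, 21 without M2 and M4 and 24 to 39 with each animal left out. Over all transcripts, calls without M2 and M4 were 3 lower in FatS10 than in Fat. Calls higher in FatS10 were then 0 against Cells and 1491 against Bx. With each animal left out these counts were 468 to 1760, 4 to 293 and 2260 to 2968, in that order. The cause was not tested, except that leaving out animals leaves fewer samples. With the replicate block the counts of members called became 77 in FatS10 against Fat and 37 in FatS10 against Bx, and stayed at 0 for days in milk fat and for the difference between day effects, where 0 was also found under every other setting run. Of all transcripts, 22.3% were called lower in FatS10 than in Fat with the block and 24.6% higher than in Bx. Scaling moved the median over all transcripts: without it the median difference of FatS10 was 0.11 from Fat, 0.11 from Cells and 0.30 from Bx, and calls of all transcripts in FatS10 against Fat were 1306 higher and 1802 lower with scaling and 1887 and 667 without; against Bx they were 3205 and 2775 with scaling and 4512 and 1885 without; against Cells they were 19 and 79 with it, 8 and 15 without and 11 and 114 with the 75th percentile. Between days in Cells they were 488 and 217, and 349 and 317 with the 75th percentile. None of the differences printed for single members reversed in sign under the settings run. FPKM carry no read counts and only relative depth was estimated, so the precision of low values is not known beyond the spread of runs.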
